A study of Homo sapiens with 8 samples.

Results

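Krüppel-like factors (KLF) are transcription factors, and 10 of their genes were followed here out of the 63677 genes counted in the series: KLF2, KLF3, KLF4, KLF6, KLF7, KLF9, KLF10, KLF11, KLF12 and KLF13. They were taken by symbol from the gene names that the authors' deposited tables pair with Ensembl identifiers, and each symbol matched 1 identifier. The list was chosen by measured values of these libraries. Which contrast served is not recorded, so every contrast of ACBI-1 with DMSO is counted as used and given below as a description. RNA was sequenced from DND-41 and MOLT-4, established human lines labelled T-ALL (an acute leukaemia of T-lymphoid precursors). Cells had received ACBI-1 at 100 nM, or the solvent DMSO, for 24 h. ACBI-1 is a degrader: it links the bromodomain proteins SMARCA2, SMARCA4 and PBRM1, subunits of the BAF and PBAF chromatin remodelling complexes, to the ubiquitin ligase VHL. Each of the 4 combinations of line and treatment held 2 libraries. Each line is a single cell line with no genetic change stated in the labels, and the labels do not say whether libraries of a group came from separate cultures, so errors and p-values cover only the spread between these libraries.

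KLF proteins bind DNA through zinc fingers at their C-terminal end and recognise CACCC boxes and GC-rich boxes, which they share with the related SP proteins. KLF2, KLF4, KLF6 and KLF7 are known chiefly as activators. KLF3 and KLF12 recruit the corepressor CtBP, and KLF9, KLF10, KLF11 and KLF13 carry a domain that binds the corepressor SIN3A. In T cells KLF2 is known for keeping naive cells quiescent and for promoting their exit from the thymus through S1PR1, and KLF10 is a gene induced by TGF-beta.

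Library totals lay between 21308737 and 22067644 counts. The DND-41 libraries did not group by the treatment in their names. Libraries with the same replicate number differed by 6.001 and 5.531 times the counting noise (chi-square per degree of freedom), while pairs with different numbers differed by 70.2 to 84.1 times. In MOLT-4 the pairs of 1 group differed by 2.85 and 1.562 times and pairs across groups by 55.66 to 57.03 times. For the 8 listed KLF genes with a value there, the authors' deposited table of DND-41 gave, within 0.001, the log2 fold change of libraries numbered 2 over libraries numbered 1, and none of the 8 equalled the labelled ACBI-1 over DMSO. For MOLT-4 the authors' deposited table followed the labels for all 10. DND-41 values are therefore given library by library, as labelled and as the authors' deposited table has them. The T-cell markers CD3D, CD3E, CD3G, CD2, CD5, CD7, LCK and PTCRA summed to 3136 to 3391 CPM in DND-41, where PTCRA had at most 3 counts in a library, and to 2210 to 2352 CPM in MOLT-4 (CPM, counts scaled to a common TMM-adjusted library total). Of the myeloid, erythroid and epithelial markers, 11 of 11 in DND-41 and 9 of 11 in MOLT-4 had at most 3 counts in any library.

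The promoters of KLF2, KLF6 and KLF13 are shown for the places these genes take in what follows: KLF2 spread most widely among the DND-41 libraries, KLF13 had the highest mean level in each group, and KLF6 stood 4.01-fold lower in MOLT-4 than in DND-41. The stretches come from RefSeq windows on GRCh38.p14 and end before the outermost start of the gene. They are written 5′ to 3′ on the strand of the gene, with capitals marking GC boxes (GGGCGG, or CCGCCC on the other strand), CACCC boxes (CACCC or GGGTG) and, in KLF2, a MEF2-type core (CTAAA joined to TTTAG, the same on both strands).
KLF2 (chr19:16324576-16324816, plus strand): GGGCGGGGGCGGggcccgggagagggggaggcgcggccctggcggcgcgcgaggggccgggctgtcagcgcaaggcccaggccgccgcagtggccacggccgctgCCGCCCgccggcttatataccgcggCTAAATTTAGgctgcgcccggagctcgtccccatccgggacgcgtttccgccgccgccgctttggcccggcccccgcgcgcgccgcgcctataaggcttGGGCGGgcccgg
KLF6 (chr10:3785282-3785459, minus strand): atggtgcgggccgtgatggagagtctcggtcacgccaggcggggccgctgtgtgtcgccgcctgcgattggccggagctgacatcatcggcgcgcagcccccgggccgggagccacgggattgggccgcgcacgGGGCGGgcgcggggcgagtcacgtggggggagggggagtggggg
KLF13 (chr15:31326585-31326834, plus strand): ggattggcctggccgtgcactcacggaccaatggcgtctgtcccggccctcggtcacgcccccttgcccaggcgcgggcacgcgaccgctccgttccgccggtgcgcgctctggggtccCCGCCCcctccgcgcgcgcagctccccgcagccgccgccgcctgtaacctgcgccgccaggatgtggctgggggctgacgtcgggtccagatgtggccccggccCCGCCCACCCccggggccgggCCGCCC

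RefSeq windows of 300 bases, from 250 before to 50 after a transcript start, matched 8 of the 10 genes with 15 windows. A GC box lay in 8 of the 15 windows and in 45.0% of all 35116 windows of that length, and a CACCC box in 7 of 15 against 59.9%. The KLF2 window held 6 GC boxes, a number that 2.86% of all windows reach, and no CACCC box. Its bases were 80.7% G or C, against a median of 58.7% for all windows, and the part of this in the number of GC boxes was not tested. The KLF2 window also held the MEF2-type core at bases -120 to -111 from the start. It was the only match to this exact run of letters among the 15 windows, and 0.0655% of all windows hold 1. Other forms of MEF2-type cores were not searched, so the share is not that of MEF2-type cores in general. MEF2 factors, which bind such AT-rich cores, are textbook activators of KLF2 downstream of the kinase ERK5 (gene MAPK7). The KLF6 window held 2 GC boxes and the E-box CACGTG, found in 7.26% of windows, and the KLF13 window held 3 GC boxes and 1 CACCC box that runs on from a GC box. Motifs were searched on both strands and overlapping matches were counted separately. A match is a run of letters, not a measured binding site.

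**Figure D1:**
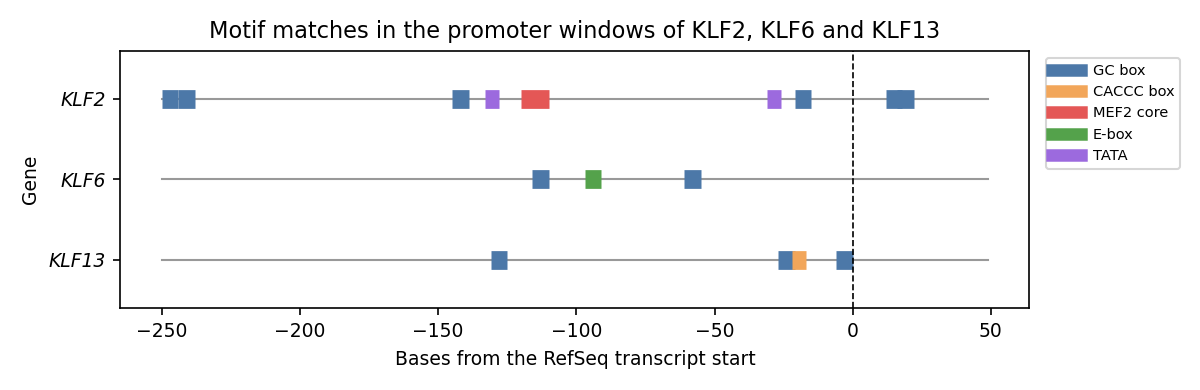
Map of motif matches in the 300-base RefSeq promoter windows of KLF2, KLF6 and KLF13. The x axis gives bases from the RefSeq transcript start (dashed line at 0), each row is 1 gene and each coloured block is 1 match on either strand; blocks that overlap are drawn over each other. KLF2 carries 6 GC boxes, and its MEF2-type core lies at -120 to -111.

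The genes fell into 7 that were readily counted and 3 near the floor. Per kilobase of exon (union of GENCODE 29 exons), KLF13 had the highest mean in each of the 4 groups. In MOLT-4 with DMSO its level was 21.6 ± 0.893 CPM per kilobase (SD, n = 2). KLF10 (6.60 ± 0.327), KLF6 (5.97 ± 0.338), KLF12 (4.94 ± 0.110), KLF3 (3.29 ± 0.167), KLF7 (1.40 ± 0.0240) and KLF2 (1.04 ± 0.0155) followed in that order, and no library of 1 gene overlapped a library of the next. With ACBI-1 KLF10 and KLF12 changed places in the order of MOLT-4 levels per kilobase: KLF12 (5.69 ± 0.0305) then stood next after KLF13, ahead of KLF6 (4.90 ± 0.0404), and KLF10 (3.95 ± 0.0628) came after KLF6. In DND-41 libraries labelled DMSO, KLF13 (24.9 ± 7.77 CPM per kilobase) and KLF6 (23.7 ± 4.32) overlapped at the top, KLF12 (12.6 ± 2.81) came next, and KLF2 (3.85 ± 4.99) overlapped KLF10 (2.52 ± 0.732).

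KLF4, KLF9 and KLF11 did not reach the filter on low counts in any of the 4 comparisons. KLF4, one of the factors used to reprogram cells to pluripotency, had 0 counts in 7 of 8 libraries and 2 counts in MOLT-4 ACBI-1 replicate 2. A count of 0 allows up to 3 counts, which is 0.127 to 0.149 CPM in these libraries, for counting error only. KLF11, a relative of KLF10, had 0 counts in all 4 DND-41 libraries, 3 and 3 counts in MOLT-4 with DMSO, and 4 and 10 with ACBI-1. KLF9, known as a glucocorticoid-induced gene, had 0 to 5 counts in a library. For all 3 genes the highest count stood in MOLT-4 ACBI-1 replicate 2. That library also held the highest sum of fibroblast markers in MOLT-4: COL1A1, COL1A2 and PDGFRB summed to 20.03 CPM there against 1.04 to 1.74 CPM in the other 3. COL1A1 had 312 counts in that library and 8 to 23 in the other 3, and COL1A2 had 111 against 1 to 4. PDGFRB was not raised there, at 11 counts against 8 to 12. The part of the collagen RNA in the counts of KLF4, KLF9 and KLF11 was not tested.

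**Figure D2:**
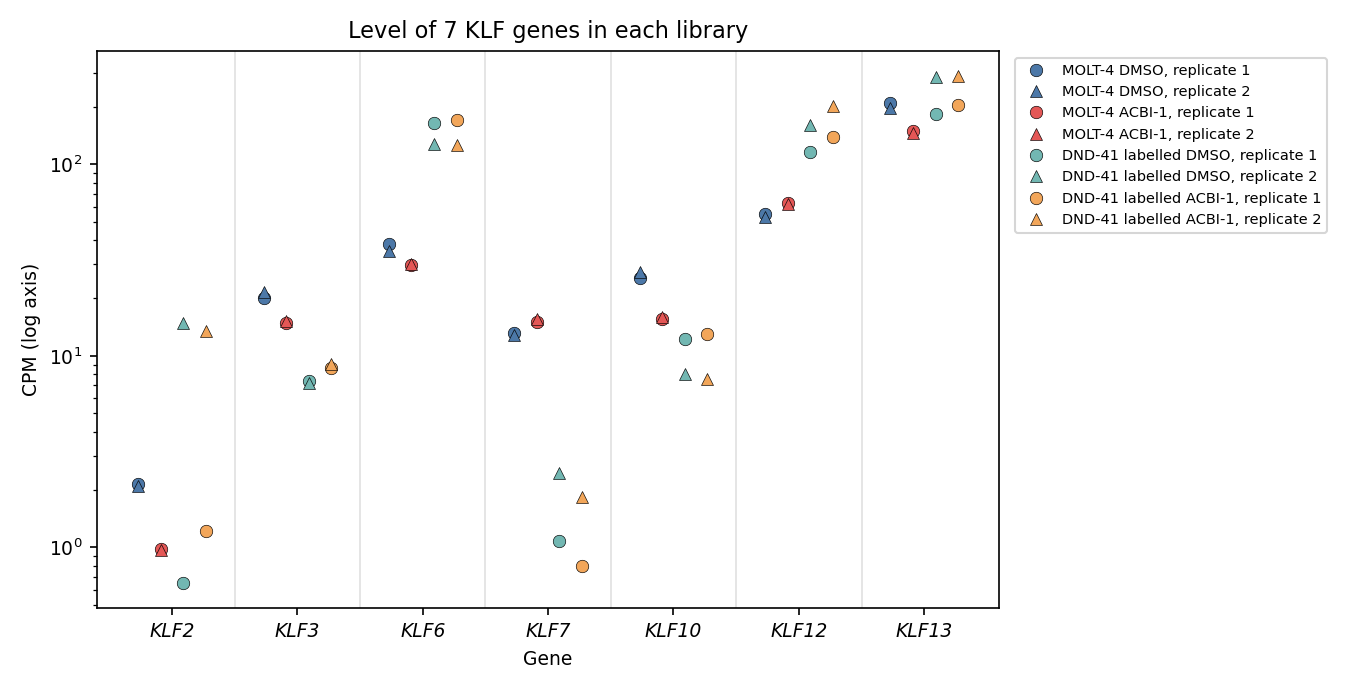
CPM of the 7 readily counted KLF genes in each of the 8 libraries, on a log axis. Colours give line and labelled treatment, circles replicate 1 and triangles replicate 2; no mean is drawn. In MOLT-4 both replicates nearly coincide, while in DND-41 the symbols separate by replicate number, most widely for KLF2 (0.655 and 1.22 against 13.5 and 14.9 CPM).

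In MOLT-4, 5 of the 7 counted KLF genes were lower with ACBI-1 and 2 were higher, and for each of the 7 the ACBI-1 libraries did not overlap the DMSO libraries. KLF2 had the largest fall of the 7, 2.15-fold, KLF10 the next, and KLF13, KLF3 and KLF6 fell less. KLF12 and KLF7 were higher by small amounts. By edgeR's quasi-likelihood test with Benjamini-Hochberg adjustment over all 14618 genes tested, 7 of 7 passed the threshold of 0.05, where 58.4% of all genes passed (28.2% higher, 30.2% lower), and groups that do not overlap were found in 77.7% of all genes. The members' median log2 fold change was -0.46 against 0.01 for all genes tested. DESeq2 passed 4 of the 7 (KLF3, KLF6, KLF10 and KLF13), where 35.8% of all genes passed. With the spread shared with the DND-41 libraries 0 of 7 passed, where 3.39% of all genes did. A sum of 4 B-lineage markers (MS4A1, CD79A, CD79B and PAX5, with MS4A1 and PAX5 at 3 counts or fewer in every library) was also lower with ACBI-1 in MOLT-4, at 0.558 and 0.323 CPM against 4.65 and 4.86 CPM with DMSO, and its part in these values was not tested.

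Among the activators, KLF2 had 43 and 42 counts with DMSO and 21 and 21 with ACBI-1. These are 2.13 and 2.08 CPM with DMSO and 0.976 and 0.969 CPM with ACBI-1, a log2 fold change of -1.11 (SE 0.276), or 2.15-fold lower. Both ACBI-1 libraries were lower than both DMSO libraries, at a level where 1 library rests on few counts, and KLF2 missed the threshold in the authors' deposited table of MOLT-4 (log2 fold change -1.12, SE 0.493, DESeq2 adjusted p = 0.0623). KLF6, an early response gene and tumour suppressor, was 38.1 and 35.2 CPM with DMSO and 29.9 and 30.3 CPM with ACBI-1 (log2 fold change -0.28, SE 0.0649). KLF7, a factor of neuronal and lymphoid progenitors, was 13.1 and 12.8 CPM with DMSO and 15.0 and 15.6 CPM with ACBI-1 (0.24, SE 0.0927). The call on KLF7 was lost when any 1 of the 4 MOLT-4 libraries was left out (edgeR adjusted p = 0.0643 and 0.115 without ACBI-1 replicates 1 and 2, 0.0649 and 0.126 without DMSO replicates 1 and 2), at log2 fold changes of 0.21 to 0.27.

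The CtBP-binding repressors went apart. KLF3, which restrains B-cell and fat-cell programmes, was 19.9 and 21.4 CPM with DMSO and 14.9 and 15.2 CPM with ACBI-1 (log2 fold change -0.46, SE 0.0840). KLF12 was 54.8 and 53.1 CPM with DMSO and 62.4 and 61.9 CPM with ACBI-1 (0.21, SE 0.0524). By the authors' deposited table of MOLT-4, KLF3 passed (-0.47, DESeq2 adjusted p = 0.00501) and KLF12 did not (0.19, DESeq2 adjusted p = 0.0553).

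Both counted SIN3A-binding members were lower with ACBI-1. KLF10 was 25.5 and 27.3 CPM with DMSO and 15.6 and 16.0 CPM with ACBI-1 (log2 fold change -0.74, SE 0.0786), 1.67-fold lower. KLF13, first known for activating CCL5 in T cells, was 209 and 197.5 CPM with DMSO and 149 and 146 CPM with ACBI-1 (-0.46, SE 0.0395), 1.38-fold lower. No ACBI-1 library of either gene came near a DMSO library. CCL5 itself had 0 counts in all 4 MOLT-4 libraries. Without ACBI-1 replicate 2, the library with those collagen counts, log2 fold changes were -0.75 for KLF10, -0.45 for KLF13 and -1.10 for KLF2. They were -0.47 for KLF3, -0.29 for KLF6 and 0.21 for KLF12. That fit rests on ACBI-1 replicate 1 alone, and the part of the collagen RNA in these values was not tested.

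**Figure D3:**
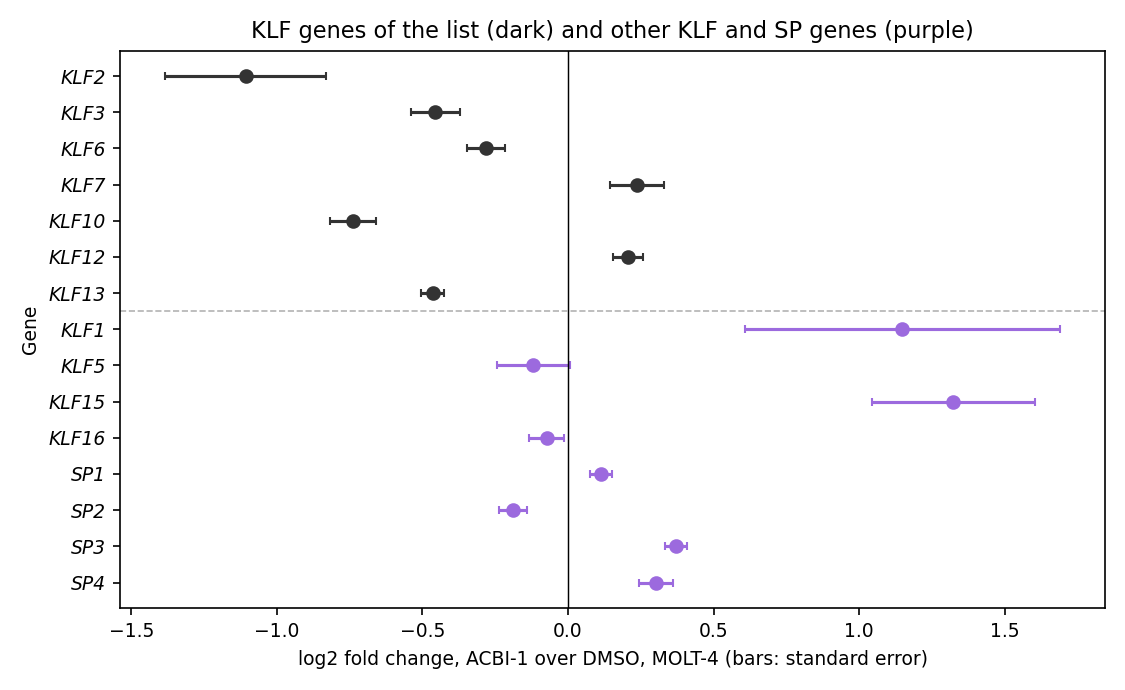
Log2 fold changes of ACBI-1 over DMSO in MOLT-4 (x axis) for the 7 counted KLF genes of the list (dark) and the 8 other KLF and SP genes that could be tested (purple); points are edgeR estimates and bars their standard errors. KLF2, KLF10, KLF13, KLF3 and KLF6 lie left of 0, and KLF12 and KLF7 right of it at 0.21 and 0.24.

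The other KLF and SP genes are what the choice of the list by measured values left out, and are given as a description. Of 17 other KLF and SP genes, 8 could be tested: in MOLT-4, 4 rose and 1 fell, while 3 missed the threshold, with a median log2 fold change of 0.21 against 0.01 for all genes tested. Among all genes, 28.2% passed as higher and 30.2% as lower. SP3, a ubiquitous competitor at GC boxes, rose from 161 ± 2.49 to 209 ± 6.27 CPM (SD over 2 libraries; a log2 difference of 0.37, edgeR adjusted p = 3.04e-11), and SP4 rose by 0.30 (edgeR adjusted p = 2.03e-05). KLF15, a metabolic regulator, rose from 18 and 20 counts to 42 and 60 counts (1.32, edgeR adjusted p = 8.17e-05) and had 0 counts in all 4 DND-41 libraries. SP2 fell by 0.19 on the log2 scale (edgeR adjusted p = 0.000688), a call lost with scaling by total counts (-0.07, adjusted p = 0.203 by edgeR). Scaling by total counts shifted the all-gene median in MOLT-4 by 0.119, changed the sign of none of the 7 listed genes and again gave 5 lower and 2 higher past the threshold. Of all genes, 39.7% were then higher and 20.7% lower, and of these other family genes 5 were higher and 0 lower.

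The partners and inputs of KLF proteins were taken from lists of known cofactors and regulators. Of all genes tested in MOLT-4, 28.2% passed as higher and 30.2% as lower, and with total counts 39.7% and 20.7%. Among 13 corepressors, coactivators and ubiquitin ligases, 3 rose and 4 fell in MOLT-4, and 6 missed the threshold (median log2 fold change -0.01). With total counts 5 rose and 3 fell. KAT2B, an acetyltransferase of the PCAF type, rose from 17.6 ± 0.592 to 36.2 ± 0.382 CPM (SD, n = 2; 1.04, edgeR adjusted p = 1.18e-16), CREBBP, its fellow acetyltransferase, rose by 0.41 and SIN3A by 0.25 on the log2 scale. HDAC2, which works in the SIN3 complex, fell by 0.24. Of 15 upstream genes 14 could be tested: 7 rose, 2 fell and 5 did not pass (median 0.23), and with total counts 9 rose and 1 fell. MEF2D, a MEF2 factor, rose from 56.1 ± 0.777 to 97.4 ± 4.27 CPM (0.80, edgeR adjusted p = 3.73e-18). TGFB1, the ligand that induces KLF10, fell from 27.8 ± 0.757 to 17.5 ± 0.964 CPM (-0.67, edgeR adjusted p = 4.40e-10), and its receptor gene TGFBR2 rose (0.42, edgeR adjusted p = 4.21e-08), as did FOXO3 (0.31, edgeR adjusted p = 4.47e-06), a factor of the group that drives KLF2 in resting T cells. The part of these upstream genes in the KLF values was not tested.

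Of 7 genes reported as targets of KLF proteins, 5 could be tested in MOLT-4, of which 1 rose, 1 fell and 3 missed the threshold (median log2 fold change -0.19). With total counts 2 rose and 1 fell. The shares of all genes were 28.2% higher and 30.2% lower, and with total counts 39.7% and 20.7%. The KLF2 targets moved apart. S1PR1, the receptor for thymic exit, rose from 18.8 ± 0.247 to 39.6 ± 2.12 CPM (SD, n = 2; 1.08, edgeR adjusted p = 2.32e-17). CCR7, a chemokine receptor for lymph nodes, went from 25 and 49 counts with DMSO to 2 and 6 counts with ACBI-1 (-3.26, edgeR adjusted p = 5.26e-08).

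In DND-41 as labelled, none of the 7 counted KLF genes passed between ACBI-1 and DMSO. By edgeR 0 of 7 passed (0% of 14602 genes did), 0 of 7 had an unadjusted p under 0.05, and DESeq2 passed 0. KLF3 was the 1 listed gene whose labelled groups did not overlap, at 8.63 and 9.10 CPM in libraries labelled ACBI-1 and 7.39 and 7.21 CPM in those labelled DMSO (log2 fold change 0.29, SE 0.211), where 16.1% of all genes had groups that do not overlap. The other genes were spread by replicate number within each label, and the fit as labelled is wide for them: KLF2 had a log2 fold change of -0.05 with an SE of 1.69.

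KLF2 showed the widest spread among DND-41 libraries. It had 26 counts (1.22 CPM) in the library labelled ACBI-1 replicate 1 and 14 counts (0.655 CPM) in that labelled DMSO replicate 1, against 320 counts (13.5 CPM) and 349 counts (14.9 CPM) in the second libraries of the ACBI-1 and the DMSO label. Libraries numbered 2 were 15.2-fold higher on average than those numbered 1. The authors' deposited table of DND-41 has this as a log2 fold change of 3.91 (SE 0.319, DESeq2 adjusted p = 1.59e-32). KLF13 went the same way at a high level, with 205 and 183 CPM in libraries numbered 1 (labelled ACBI-1 and DMSO) and 289 and 286 CPM in those numbered 2, and 0.55 (SE 0.0827, DESeq2 adjusted p = 2.81e-10) by the authors' deposited table. KLF12 was 138 and 116 CPM in libraries numbered 1 and 202 and 160 CPM in those numbered 2, 0.49 (SE 0.115, DESeq2 adjusted p = 0.000109) by the authors' deposited table.

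KLF10 and KLF6 ran the other way across the DND-41 libraries. KLF10 was 13.0 and 12.2 CPM in libraries numbered 1 and 7.54 and 8.02 CPM in those numbered 2, which the authors' deposited table gives as -0.71 (SE 0.202, DESeq2 adjusted p = 0.00198). KLF6 was 169 and 164 CPM in libraries numbered 1 and 127 and 127 CPM in those numbered 2, which the authors' deposited table gives as -0.41 (SE 0.0821, DESeq2 adjusted p = 4.30e-06). KLF7 (17 and 23 counts against 43 and 57) and KLF3 (184 and 158 counts against 215 and 169) missed the threshold by the authors' deposited table, at 1.17 (DESeq2 adjusted p = 0.0610) and 0.01 (DESeq2 adjusted p = 0.978). Of the 7 listed genes with an adjusted p there, 3 passed as higher and 2 as lower, where 36.8% of all its genes passed (15.2% higher, 21.6% lower). By the authors' deposited table of MOLT-4, 0 listed genes passed as higher and 4 as lower of 8, where 35.1% of all its genes passed (14.7% higher, 20.3% lower). Some markers of other cell types moved with the replicate number in DND-41. The same 4 B-lineage markers summed to 691 and 738 CPM in libraries numbered 1 and 177 and 208 CPM in those numbered 2. The fibroblast markers summed to 32.6 and 33.0 CPM against 8.21 and 8.15 CPM, a shift that lay in PDGFRB (685 and 695 counts against 184 and 183). COL1A1 had 9 and 9 counts against 7 and 6, and COL1A2 had 3 or fewer in every DND-41 library. Their part in the KLF values was not tested.

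**Figure D4:**
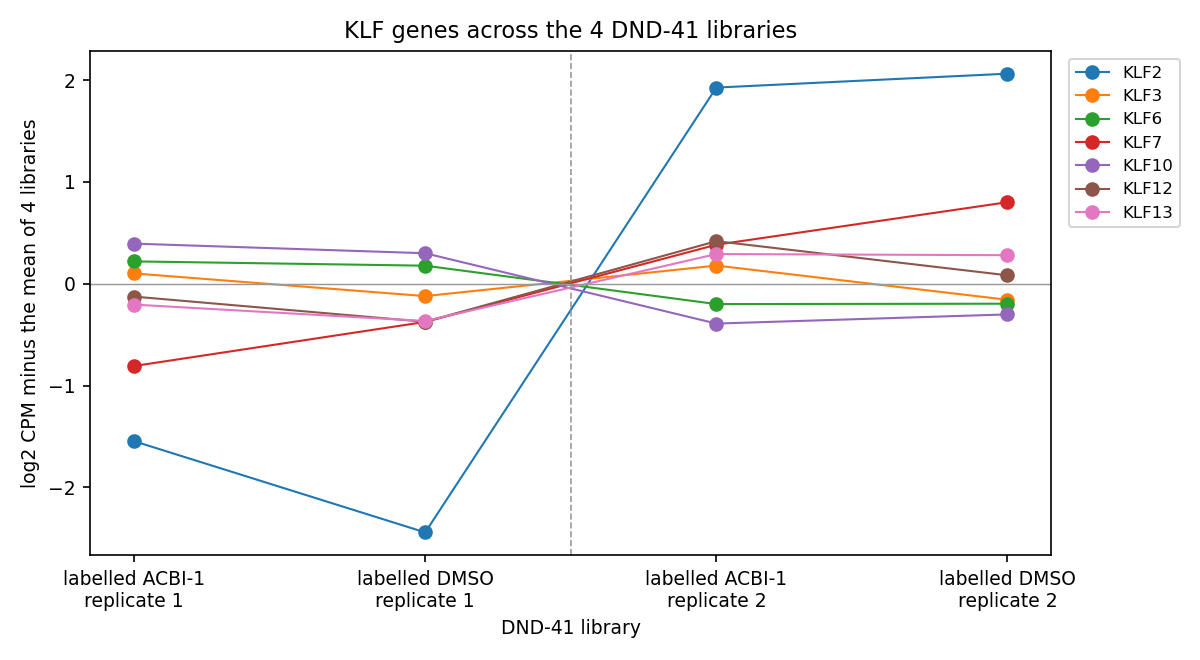
Log2 CPM of the 7 counted KLF genes in the 4 DND-41 libraries, as the difference from the mean of the 4 (y axis); each coloured line joins the values of 1 gene, and the dashed line separates libraries numbered 1 from those numbered 2. KLF2 steps up from 0.655 to 1.22 CPM on the left to 13.5 to 14.9 CPM on the right, KLF10 and KLF6 step down, and no gene but KLF3 separates the labelled treatments.

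Side by side, the authors' deposited tables, as deposited, gave KLF2 and KLF13 opposite signs in the lines. Both contrasts count as used in choosing the genes, so the differences are given with their errors and as a description. KLF2 stood at -1.12 in the authors' deposited table of MOLT-4 and 3.91 in that of DND-41, a difference (MOLT-4 minus DND-41) of -5.03 (SE 0.588). KLF13 stood at -0.48 and 0.55 in the authors' deposited table values, a difference of -1.03 (SE 0.0992). KLF10 stood at -0.75 and -0.71, a difference of -0.04 (SE 0.243) from the authors' deposited table values. Which DND-41 libraries received ACBI-1 cannot be told from the labels and the authors' deposited table together. With the signs of the DND-41 values in the authors' deposited table turned, the difference was 0.08 (SE 0.0992) for KLF13, 2.79 (SE 0.588) for KLF2 and -1.46 (SE 0.243) for KLF10. KLF13 and KLF2 (-1.12 and -3.91) then had the same sign in both lines. KLF3 had opposite signs as deposited (-0.47 and 0.01) and the same sign when turned (-0.47 and -0.01). The DND-41 value of KLF3 was smaller than its SE (0.233), so its sign is not settled. KLF6 (-0.29 and 0.41), KLF7 (0.23 and -1.17), KLF10 (-0.75 and 0.71) and KLF12 (0.19 and -0.49) had opposite signs. The DND-41 side of each difference sets libraries numbered 2 against libraries numbered 1.

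With the libraries as labelled, no counted KLF gene passed the edgeR interaction test of the change with ACBI-1 between the lines (0 of 7, where 0.393% of 16047 genes passed, 0.125% higher in MOLT-4 and 0.268% lower; 1 of 7, KLF3, had an unadjusted p under 0.05, and DESeq2 passed 0). KLF3 had the largest ratio of difference to error, -0.74 (MOLT-4 minus DND-41, SE 0.174, edgeR adjusted p = 0.205). The error of this fit holds the difference between replicate numbers in DND-41. A block for replicate number raised the count of KLF genes and of all genes that passed, as given below under the dependence on processing. The numbers are not shown to pair the libraries.

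Some KLF genes differed between the lines, as did many other genes. The DMSO groups did not overlap for KLF3, KLF6, KLF7, KLF10 and KLF12, and overlapped for KLF2 and KLF13. Between the DMSO libraries, 5 of 7 listed genes passed by edgeR, 3 higher in MOLT-4 and 2 lower, where 35.1% of 15069 genes passed (17.7% higher, 17.4% lower) and 76.1% had groups that do not overlap. KLF7 was 13.1 and 12.8 CPM in MOLT-4 and 1.08 and 2.43 CPM in DND-41, 7.26-fold higher in MOLT-4 (log2 fold change 2.86, SE 0.419, edgeR adjusted p = 0.0115). Its log2 fold change was 3.57 without DND-41 DMSO replicate 2 and 2.42 without DND-41 DMSO replicate 1. KLF6 was 38.1 and 35.2 CPM in MOLT-4 and 164 and 127 CPM in DND-41, 4.01-fold lower in MOLT-4 (-2.00, SE 0.165, edgeR adjusted p = 0.00319). The repressor pair again went apart, with KLF3 higher in MOLT-4 (1.49, SE 0.151, edgeR adjusted p = 0.00501) and KLF12 lower (-1.37, SE 0.183, edgeR adjusted p = 0.00938). KLF10 was higher in MOLT-4 (1.38, SE 0.242, edgeR adjusted p = 0.0174). Without 1 MOLT-4 DMSO library the calls on KLF10 (edgeR adjusted p = 0.0553 without replicate 1 and 0.0717 without replicate 2) and on KLF3 (0.0512 without replicate 2) were lost, which left 4 of 7 without replicate 1, where 13.6% of all genes passed, and 3 of 7 (KLF6, KLF7 and KLF12) without replicate 2, where 13.7% did.

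For KLF2 and KLF13 the difference between the lines turned on the DND-41 libraries chosen. The split by number was made after seeing the data, and each number holds 1 library labelled ACBI-1 and 1 labelled DMSO. Values and p-values against the numbered libraries are therefore a description. KLF2 did not pass against the libraries labelled DMSO (-1.90, SE 1.34, edgeR adjusted p = 0.315). Against the 2 libraries numbered 1 it was higher in MOLT-4 (1.16, edgeR adjusted p = 0.00537), and against the 2 numbered 2 it was lower (-2.75, edgeR adjusted p = 1.66e-09). Leaving out only DMSO replicate 1 or 2 of DND-41 gave -2.81 (edgeR adjusted p = 0.000209) and 1.66 (edgeR adjusted p = 0.00689). KLF13 was -0.22 (SE 0.237, edgeR adjusted p = 0.501) against the libraries labelled DMSO, 0.07 (0.369) against those numbered 1 and -0.50 (9.23e-07) against those numbered 2. It was -0.49 (edgeR adjusted p = 0.00118) without DND-41 DMSO replicate 1 and 0.14 (edgeR adjusted p = 0.0489) without replicate 2. The other 5 genes kept their direction and their call against the libraries numbered 1 and against those numbered 2. The count columns of MOLT-4 carry the word redo, which the labels do not explain, so line and any difference in how its libraries were made cannot be told apart. Scaling by total counts moved the median of all genes in this comparison by -0.17 and gave 14.2% of all genes higher and 22.1% lower, with the listed genes again at 3 higher and 2 lower.

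**Figure D5:**
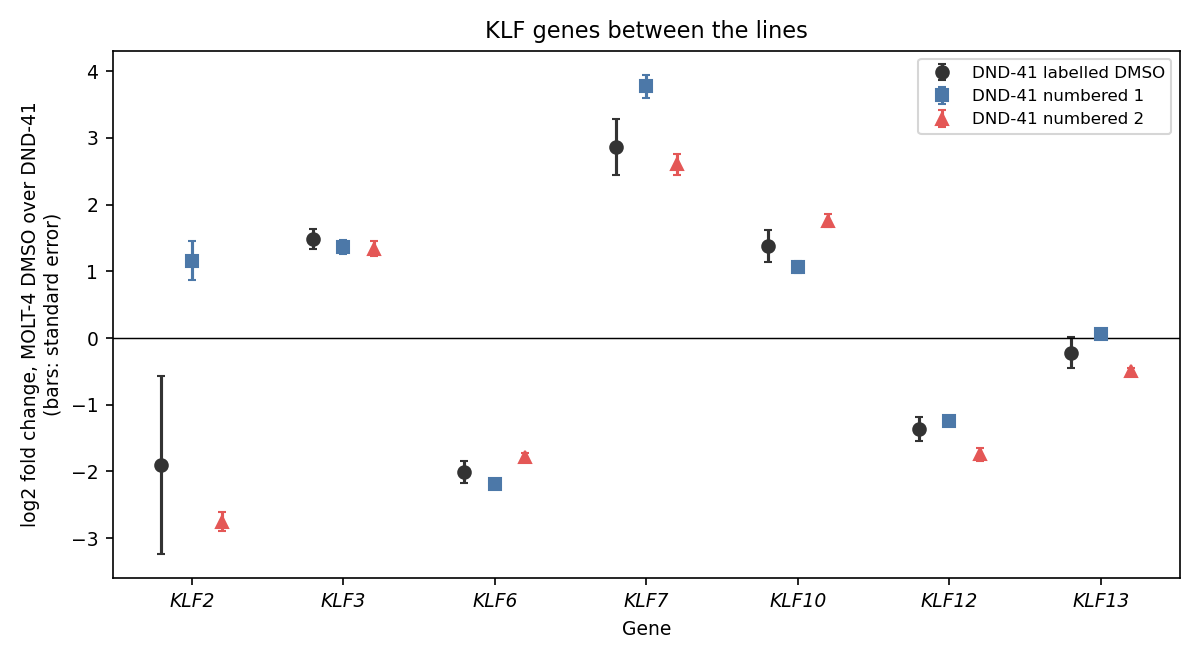
Log2 fold changes of MOLT-4 DMSO libraries over DND-41 libraries for the 7 counted KLF genes, with DND-41 taken as the libraries labelled DMSO (circles), numbered 1 (squares) or numbered 2 (triangles); bars are edgeR standard errors. Each number holds 1 library labelled ACBI-1 and 1 labelled DMSO, a split made after seeing the data. KLF3, KLF7 and KLF10 lie above 0 and KLF6 and KLF12 below 0 in all 3 forms, while KLF2 runs from 1.16 to -2.75.

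Across all 8 libraries the listed genes formed opposed patterns, which mostly follow the lines. Pearson's correlation of log2 CPM was -0.99 between KLF6 and KLF7, 0.90 between KLF2 and KLF13 and -0.92 between KLF10 and KLF12, over 8 libraries that share their line and, in DND-41, their replicate number. Among 10448 genes of at least 5 CPM on average, the gene most like KLF2 was FAM120B (r = 0.99 over the 8 libraries), followed by ARRDC2 and LEF1 (both 0.98). The gene most like each other member was SARDH for KLF3 (0.99), KAZN for KLF6, CCNE1 for KLF7, USP7 for KLF10 and EPG5 for KLF12 (r from 0.9977 to 0.9991), and TRIM22 for KLF13 (0.99).

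Some genes overlap the KLF genes or are copies of them, and how far their reads enter the KLF counts was not tested. KLF3-AS1, which overlaps KLF3 on the opposite strand in GENCODE 29, had 16 counts against 2211 of KLF3 over the 8 libraries. KLF7-IT1 had 5 against 1322 of KLF7. Of 10 KLF pseudogenes, 9 had no count and KLF17P1 had 9.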

How the data were processed

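Per the submitters' processing notes, STAR 2.5.2a aligned the reads to hg19, featureCounts counted them and DESeq2 1.12.4 compared groups; the annotation release and strand setting are not given in the sources used here. The authors deposited raw counts per gene, whole numbers with 1 table per line. The deposited DESeq2 tables hold log2 fold changes with standard errors, a mean signal of normalised counts, a Wald score (not used) and p-values.

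Columns were joined by Ensembl identifier and assigned by line, treatment and number in their names. CPM used TMM factors of all 8 libraries. Tests used edgeR 4.0.16 in R 4.3.3 (quasi-likelihood, 2-sided, TMM, filterByExpr, Benjamini-Hochberg at 0.05), with DESeq2 1.42.0 as an alternative. For the authors' deposited tables, each gene's DND-41 value was subtracted from its MOLT-4 value, with the combined standard error; turning the DND-41 signs was chosen after seeing the data. Exon lengths are from GENCODE 29, which held 52526 of 63677 identifiers. The steps were tested on simulated data.

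The members and lists were chosen with earlier results of these data known. All members were named. Per list, up to 4 genes with the smallest adjusted p in MOLT-4 were eligible; CCL5 was added after its values were seen, and some list genes are not reported here. Likeness is Pearson's r of log2(CPM + 0.5), of which the first gene per member and the first 3 for KLF2 are given.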

Additional observations from a re-analysis of the deposited data

How the results depend on the processing

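In MOLT-4 the count of KLF genes past the threshold was 7; it was 4 by DESeq2, 0 with the spread shared over 8 libraries and 6 without any 1 library (45.4% to 46.9% of all genes), and no member changed sign under any alternative tried. In DND-41 as labelled the count was 0, and 1 (KLF12, 0.30) with a replicate block, where 9.24% of all genes passed against 0% without it. The interaction count was 0, and 6 (KLF2, KLF3, KLF6, KLF7, KLF10 and KLF13) with a replicate block within each line, where 36.5% of all genes passed against 0.393%; the block left the MOLT-4 count at 7 and the count between the lines at 5. Same-numbered libraries deviated together in DND-41 (r = 0.894 across genes) and not in MOLT-4 (0.00425), and with 2 pairs per line the numbers are not shown to pair the libraries. Between the lines the count was 5, and 3 to 7 when 1 library was left out, while the share of all genes past the threshold went from 35.1% to between 13.6% and 71.5%.

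Signs that turned, with the cause not tested, were as follows. In DND-41 as labelled, leaving out 1 library gave log2 fold changes of -2.68 to 3.48 for KLF2, -0.18 to 0.23 for KLF6, -1.15 to 0.28 for KLF7, -0.40 to 0.36 for KLF10, -0.00799 to 0.56 for KLF12 and -0.21 to 0.43 for KLF13. For the interaction the ranges were -4.60 to 1.56 for KLF2, -0.058 to 1.37 for KLF7 and -0.34 to 0.20 for KLF12, which was 0.0035 with total counts. Between the lines they were -2.81 to 1.66 for KLF2 and -0.49 to 0.14 for KLF13, and against the libraries numbered 1, a setting added after seeing the data, 1.16 and 0.0651. Low counts limit KLF2 in MOLT-4 and KLF7 in DND-41.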

Other observations

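Some genes of the KLF lists also separated the DND-41 libraries by number, and they are named here because of their values. S1PR1, the KLF2 target for thymic exit, had 44 and 69 counts in the libraries numbered 1 (labelled ACBI-1 and DMSO) and 177 and 187 counts in those numbered 2. CDKN1A, which encodes the cell-cycle inhibitor p21, was 17.0 and 20.2 CPM in libraries numbered 1 against 5.80 and 6.53 CPM in those numbered 2, and MEF2D was 82.1 and 74.1 CPM against 156 and 161 CPM. In each of these 3 genes the labelled treatments overlapped. KLF16, a SIN3A-binding relative of KLF13 outside the list, was 53.5 and 53.6 CPM in libraries numbered 1 and 26.4 and 29.4 CPM in those numbered 2.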
